A study of Mus musculus with 8 samples.

Results

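Heavy chain V segment genes were followed in mouse B cells on their way to the germinal center (GC). The members were all genes of the deposited count table whose symbol begins with Ighv, apart from Ighv1-72, and numbered 125 of 24259 symbols. A B cell builds its heavy chain gene by joining 1 V, 1 D and 1 J segment, and the V segment encodes most of the variable domain that touches antigen. Only the rearranged V segment is strongly transcribed in a mature B cell, so that the V transcripts of a cell population give an account of which segments its cells chose. Clones that expand, and cells that turn into antibody-secreting cells with abundant immunoglobulin mRNA, are known to weigh heavily in such an account.

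Sequenced cells were NP+IgDlowB220+ pre-GC B cells, which bind the hapten NP and have lowered IgD, from draining lymph nodes at day 3 after subcutaneous NP-OVA with LPS in alum. All hosts were CD45.1 Sap-/- mice, whose own T cells cannot sustain GCs, given OT-II T cells that recognise ovalbumin. In the HET group (4 libraries) the OT-II T cells were CD4-CrexBcl6fl/+, with 1 floxed Bcl6 allele removed by a Cre active in T lineage cells, and in the WT group (4 libraries) they were CD4-Cre. The B cells themselves were not targeted, so no deleted gene can check the group names, and the age of the mice is not given in the sources used here. Recipients of a group were pooled before 4 sorts of about 200 cells each. P-values therefore measure the spread between sorts and library preparations of 1 pool, and a difference between pools cannot be told apart from one between groups.

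Libraries held 6652386 to 12559189 counts, of which 6532 to 32229 fell on the 125 segments. HET replicate 1 was the deepest library and stood apart in several results, so the comparisons of amount and diversity are also given without it. B cell markers were high in every library, with a summed level of 9439 to 11807 counts per 1000000 (CPM) over 6 genes, and the groups did not overlap (9439 to 10663 CPM in HET, 11025 to 11807 CPM in WT). Markers of antibody-secreting cells (7 genes, 6 of them detected in all 8 libraries and Tnfrsf17 at 0 in some) summed to 2100 CPM in HET replicate 1 and to between 241 and 550 CPM in the other 7 libraries. Most of this gap was 1 gene, Jchain, at 1576 CPM in HET replicate 1, and without it the sum was 524 CPM there, 453 CPM in HET replicate 4, 431 CPM in WT replicate 4 and 240 to 284 CPM in the others. Summed T cell markers lay between 125 and 344 CPM, and myeloid markers were highest in WT replicate 2 at 421 CPM.

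Of the 125 segments, 101 are annotated as functional V genes and 22 as pseudogenes, and 2 have no unique position in the annotation. The sequences of 3 are shown because the results turn on them, namely the segment that led in 7 libraries, and the closely related pair that led in the remaining one. All lie on the minus strand of chromosome 12 (GRCm38), and each transcript joins a leader exon of 46 bases to a V exon of 305 bases. Shown are the last 300 bases of each transcript (bases 52 to 351), which lie in the V exon. In Ighv1-81 (chr12:115920279-115920578), capitals mark the 22 bases shown that differ from Ighv1-85, the most similar annotated segment (25 differences in 351 bases, 92.9% identity). In Ighv1-26 (chr12:114788372-114788671) and Ighv1-22 (chr12:114746273-114746572), capitals mark the 11 bases shown at which these segments differ from each other (12 differences in 351 bases, 96.6% identity).
Ighv1-81: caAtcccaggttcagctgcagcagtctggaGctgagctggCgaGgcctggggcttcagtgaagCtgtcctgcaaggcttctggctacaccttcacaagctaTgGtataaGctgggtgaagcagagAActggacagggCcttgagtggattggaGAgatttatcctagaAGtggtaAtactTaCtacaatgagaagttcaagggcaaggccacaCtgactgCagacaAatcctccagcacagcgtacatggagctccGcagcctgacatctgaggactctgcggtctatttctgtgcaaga
Ighv1-26: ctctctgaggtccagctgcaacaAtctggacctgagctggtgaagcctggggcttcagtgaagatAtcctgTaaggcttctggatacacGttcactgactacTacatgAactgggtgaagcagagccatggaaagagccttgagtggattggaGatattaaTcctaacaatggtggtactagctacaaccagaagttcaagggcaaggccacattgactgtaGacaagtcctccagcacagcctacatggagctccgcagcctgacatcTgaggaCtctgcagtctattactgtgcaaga
Ighv1-22: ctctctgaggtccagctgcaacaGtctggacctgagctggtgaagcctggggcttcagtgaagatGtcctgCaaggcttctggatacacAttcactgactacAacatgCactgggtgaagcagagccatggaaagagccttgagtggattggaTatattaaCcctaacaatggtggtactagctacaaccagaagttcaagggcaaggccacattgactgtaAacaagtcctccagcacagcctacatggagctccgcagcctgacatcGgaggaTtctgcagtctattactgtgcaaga

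Sequence similarity limits how well reads can be told apart between segments. None of the 252 windows of 100 bases in Ighv1-81 occurred in another annotated V segment, and the same was true of Ighv1-22. In Ighv1-26, 20 of 252 windows were shared. Of the 124 members with a transcript sequence, 33 shared at least 1 such window with another segment, so counts of closely related segments are uncertain where reads were split between them.

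The first question was which segments the cells transcribed. A single segment, Ighv1-81, held the highest share in 7 of 8 libraries, and its level hardly moved between libraries. Its share of the summed V counts (Ighv1-72 left out of the sum throughout) was 11.7%, 33.4%, 35.7% and 34.2% in HET replicates 1 to 4, and 28.9%, 35.4%, 33.4% and 34.6% in WT replicates 1 to 4. HET replicate 1 alone was low, with a 95% Wilson interval of 11.4% to 12.1%, which covers counting error only. On the CPM scale (after TMM scaling of library sizes) this library did not stand apart. Ighv1-81 reached 303, 309, 349 and 394 CPM in the HET libraries and 368, 359, 385 and 425 CPM in the WT libraries, a range of 1.40-fold over all 8. The groups overlapped, and the test found no difference beyond the spread of repeats (log2 fold change, HET over WT, -0.18, SE 0.10, adjusted p = 0.764, edgeR's quasi-likelihood test).

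The coefficient of variation (CV, SD over mean) of Ighv1-81 CPM was 0.114 over the 8 libraries. Among the 78 segments with a mean of at least 1 CPM, the other 77 had CVs from 0.337 to 2.83 with a median of 1.25. The next steadiest was Ighv1-19. Genes of any kind within 2-fold of the level of Ighv1-81 (615 genes) had a median CV of 0.11, and 53.3% of them varied less. Ighv1-81 thus varied about as much as the median gene of its level, and less than the other 77 segments. For comparison, the CV was 0.0679 for Cd79a, a signalling chain of the receptor, 0.133 for Ighd and 0.372 for Ighm, the constant region of IgM.

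**Figure D1:**
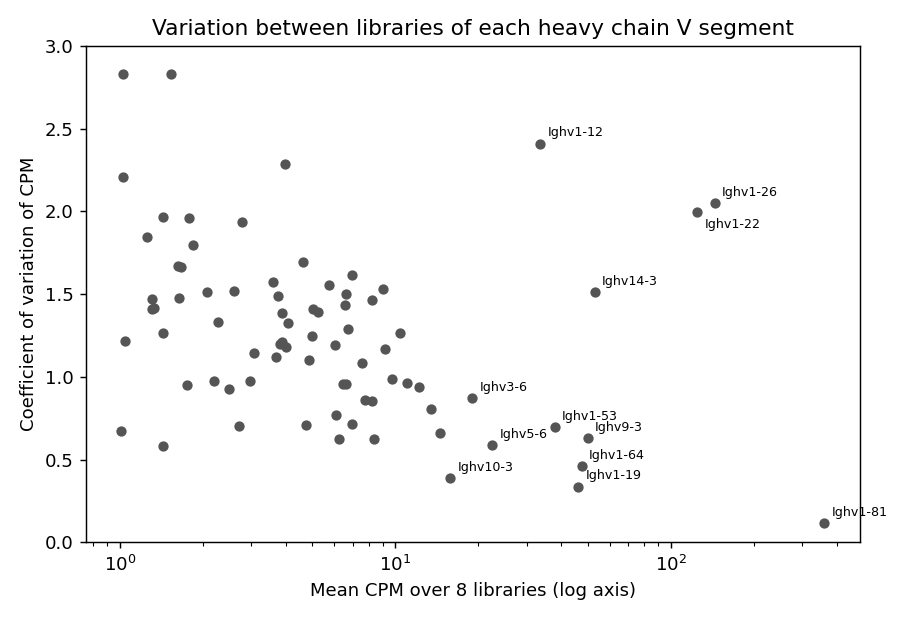
Each point is 1 of the 78 heavy chain V segments with a mean of at least 1 CPM, placed by its mean CPM over 8 libraries (log axis) and by the coefficient of variation of CPM between them, with the 12 highest mean shares labelled. Ighv1-81 lies at the lower right with a CV of 0.114, below the other segments (0.337 to 2.83).

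Below Ighv1-81, libraries differed in which segment was high. Ighv1-26 held 33.7%, 2.45%, 2.05% and 3.56% of V counts in HET replicates 1 to 4, and 10.6%, 0.861%, 4.59% and 0.443% in WT replicates 1 to 4. It was the leading segment of HET replicate 1. Ighv1-22 held 28.1%, 0.140%, 1.24% and 3.74% in HET, and 0.0970%, 1.25%, 3.55% and 12.9% in WT. It came second in both HET replicate 1 and WT replicate 4. Ighv1-12 (chr12:114615850-114616318) held 9.02% in HET replicate 1, was listed at 0 counts in HET replicates 2 and 3, and held 0.0901% to 1.08% in the other 5 libraries. A count of 0 in HET replicate 3, the library with the fewest V counts, allows a share of up to 0.0459%.

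Together these 3 segments held 70.8% of V counts in HET replicate 1 and 2.2% to 13.9% in the other libraries. Their summed level was 1833 CPM there against 22.4 to 170 CPM elsewhere. The remaining segments, with Ighv1-81 also set aside, summed to 454 CPM in HET replicate 1, below the 592 to 766 CPM of the other libraries. In this same library Jchain, which joins IgM and IgA polymers, was at 1576 CPM against 0.505 to 97.1 CPM. Of the 7 markers of antibody-secreting cells, 3 (Jchain, Irf4 and Mzb1) were highest there and 4 (Prdm1, Xbp1, Sdc1 and Tnfrsf17) were highest in other libraries. In HET replicate 1 these 4 came next after the highest library, at 10.2, 297, 33.5 and 4.10 CPM. Their highest values were 10.9, 313, 40.3 and 5.23 CPM. The part of such cells in the result was not tested. Fewer cells of a kind and less RNA per cell cannot be told apart in these bulk libraries.

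Ighv14-3 (chr12:114059845-114060321) showed the same kind of pattern in a different library. It held 21.5% of V counts in HET replicate 4 (247 CPM), and 0.0838%, 4.58% and 1.44% in HET replicates 1 to 3. In WT it held 4.36%, 0.971%, 2.49% and 2.03%. Leading members after Ighv1-81 also varied in WT, namely Ighv1-26 in replicate 1, Ighv1-53 in replicates 2 and 3, and Ighv1-22 in replicate 4. In HET replicates 2 and 3 they were Ighv1-19 (8.75%) and Ighv9-3 (11.3%). These ranks leave out Ighv1-72, which was above the member named in WT replicate 2 (65.3 against 44.6 CPM). The same held in WT replicate 4 (261 against 158 CPM) and HET replicate 3 (118 against 110 CPM).

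**Figure D2:**
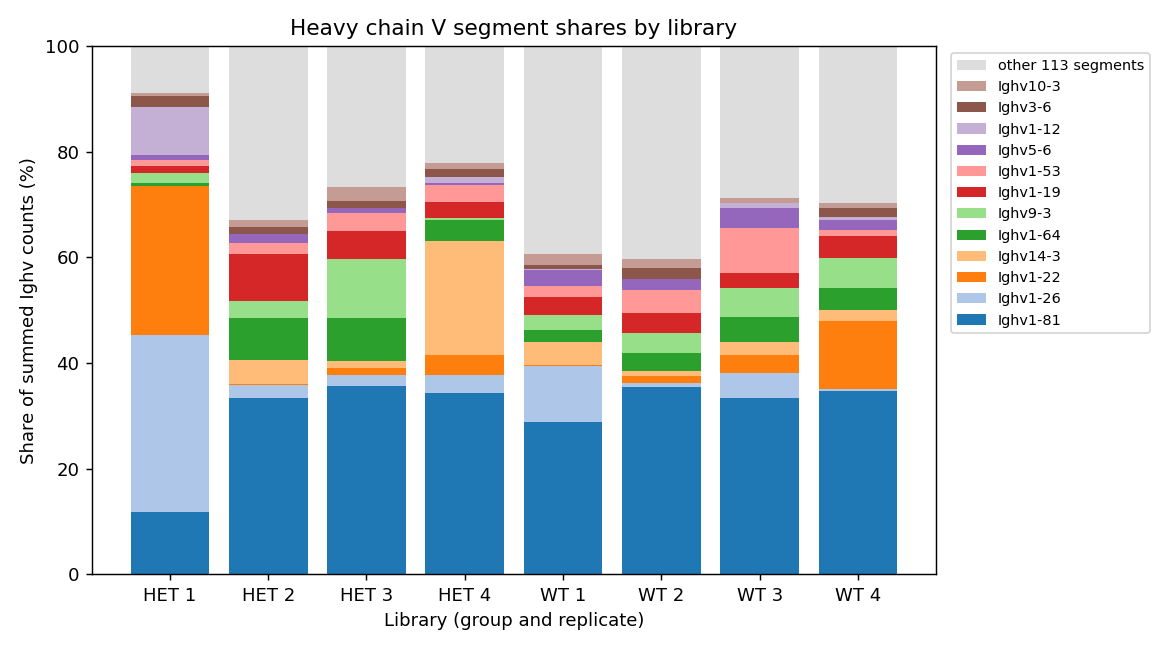
Bars give the percent of summed heavy chain V counts taken by the 12 segments of highest mean share and by the other 113 segments in each of 4 HET and 4 WT libraries. Ighv1-81 fills 28.9% to 35.7% of every bar but that of HET replicate 1, where Ighv1-26, Ighv1-22 and Ighv1-12 together fill 70.8%.

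Among the rest of the 12 leading segments, several were present in every library at moderate levels. Ighv1-19 ranged from 33.2 to 81 CPM and Ighv1-64 from 13.3 to 78.8 CPM. Ighv9-3 ranged from 4.40 to 110 CPM, with its lowest and highest values both in HET. Ighv1-53 ranged from 13.4 to 98.7 CPM, with both extremes in WT. Ighv10-3 stayed between 10.9 and 25.8 CPM and Ighv5-6 between 3.94 and 41.8 CPM, whereas Ighv3-6 was at 0 in WT replicate 3 and at 56.7 CPM in HET replicate 1. In none of these segments did the groups separate.

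**Figure D3:**
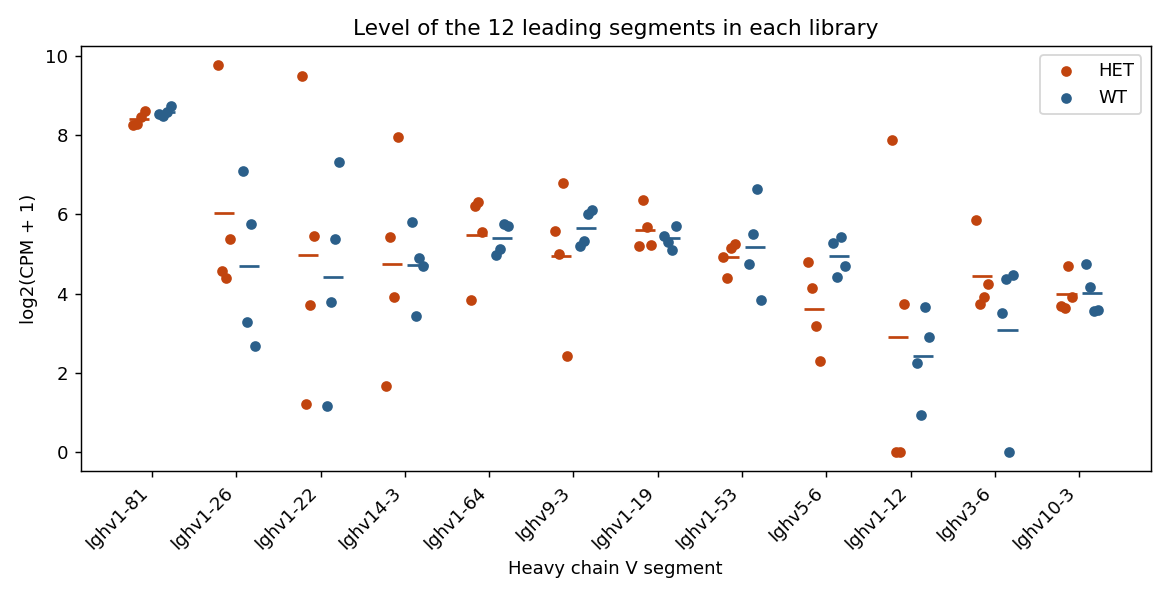
Points give log2(CPM + 1) of the 12 leading segments in each of 4 HET and 4 WT libraries, and horizontal lines give group means on that scale. Ighv1-81 is tight in both groups (303 to 425 CPM), while Ighv1-26, Ighv1-22 and Ighv1-12 each have 1 HET library far above the rest.

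Most segments were sampled by some libraries only. A set of 19 was detected (at least 1 count) in all 8 libraries and held 65.2% to 81.4% of V counts, 87 were detected in 2 to 7 libraries, and 19 in 1 library. At least 1% of V counts was exceeded by 49 segments in at least 1 library but by 3 segments in all 8, and 9 segments passed 5% somewhere. Pseudogenes together took 0.375% to 2.98% of V counts. The Ighv1-72 gene, kept out of the sums, took 2.31% to 17.6% of V counts when added, and was highest in WT replicate 4 (261 CPM).

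The repertoires of libraries were then compared in pairs by their overlap, the sum over segments of the smaller of both shares. Pairs without HET replicate 1 overlapped by 61.2% to 69.4% within HET (3 pairs), by 57.0% to 68.2% within WT (6 pairs) and by 57.7% to 69.7% between the groups (12 pairs). The 7 pairs with HET replicate 1 overlapped by 26.4% to 38.9%. With Ighv1-81 left out, pairs without HET replicate 1 overlapped by 41.3% to 54.7%. Pairs of the same group thus covered nearly the same range as pairs of different groups.

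Next, the amount and diversity of V transcripts were compared between the groups. Each measure gave 1 value per library, and a two-sided exact permutation test (70 arrangements, smallest possible p = 0.0286) was adjusted over these 4 measures. None passed it. The summed V level was 2591, 925, 979 and 1151 CPM in HET and 1274, 1015, 1151 and 1226 CPM in WT. HET averaged 1411 ± 792 CPM (SD, n = 4), and WT averaged 1167 ± 113 CPM (SD, n = 4) (exact p = 0.971, adjusted p = 0.971). The direction rested on HET replicate 1, without which the difference (HET minus WT) was -148 CPM (exact p = 0.114). Relative to Ighm, V counts were steady, at 14.3 to 16.9 per 100 Ighm counts in every library. HET replicate 1 was also highest in Ighm, at 15362 CPM against 6145 to 7657 CPM.

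The number of segments detected was 69, 74, 73 and 62 in HET and 78, 77, 65 and 80 in WT, a mean of 69.5 ± 5.45 (SD, n = 4) against 75 ± 6.78 (SD, n = 4) (exact p = 0.286, adjusted p = 0.571). Without HET replicate 1 the difference was -5.33 segments (exact p = 0.343, where 0.0571 is the smallest that 3 against 4 libraries allow). With at least 10 counts required the groups did not overlap, at 49, 53, 53 and 40 segments in HET and 64, 61, 54 and 59 in WT (exact p = 0.0286, the smallest possible and not adjusted). The groups also did not overlap without HET replicate 1 (difference -10.8 segments, exact p = 0.0571, the smallest possible). Summed V counts were 6532 to 7591 in HET replicates 2 to 4, 9123 to 13407 in WT and 32229 in HET replicate 1. In that library Ighv1-26, Ighv1-22 and Ighv1-12 took 70.8% of them. The part of depth in the difference at 10 counts was not tested. When segments were instead required to hold at least 0.1% of V counts, a minimum chosen after seeing the data, the numbers were 34, 56, 58 and 44 in HET and 62, 61, 54 and 56 in WT, and the groups overlapped (exact p = 0.171, and 0.343 without HET replicate 1). Rarefied to 6532 counts, HET libraries held 59.5 to 73.6 segments and WT libraries 64.1 to 77.5 (exact p = 0.171, and 0.343 without HET replicate 1).

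Dominance was measured by the share of the leading segment and by the effective number of segments, the inverse Simpson index, which is the number of equally used segments that would give the same concentration. The leading share averaged 34.2% ± 1.02 (SD, n = 4) for HET against 33.1% ± 2.92 (SD, n = 4) for WT (exact p = 0.657, adjusted p = 0.876), and without HET replicate 1 the difference was 1.35 percentage points (exact p = 0.686). The 5 leading segments together held 84.7%, 58.2%, 63.7% and 67.0% in HET and 50.5%, 50.8%, 56.7% and 61.5% in WT, a difference of 13.5 percentage points (exact p = 0.0571). Without HET replicate 1 it was 8.09 percentage points (exact p = 0.114). The effective number was 4.64, 7.40, 6.45 and 5.79 in HET and 9.40, 7.24, 7.45 and 6.78 in WT. Means were 6.07 ± 1.16 (SD, n = 4) and 7.72 ± 1.16 (SD, n = 4), and the lower HET values did not pass the test (exact p = 0.0857, adjusted p = 0.343). Without HET replicate 1 the difference was -1.17 (exact p = 0.171).

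Because Ighv1-81 dominated these measures, they were also computed without it, a choice made after seeing the data. The effective number was then 3.86, 18.8, 14.8 and 7.78 in HET and 21.9, 32.0, 19.7 and 15.5 in WT. Means were 11.3 ± 6.73 (SD, n = 4) and 22.3 ± 7.02 (SD, n = 4), with HET replicate 2 inside the WT range (exact p = 0.0571). Without HET replicate 1 as well the difference was -8.49 (exact p = 0.114). The share of the leading segment without Ighv1-81 was 38.1%, 13.1%, 17.5% and 32.6% in HET and 14.9%, 6.80%, 12.9% and 19.7% in WT (exact p = 0.171, and 0.343 without HET replicate 1). Segments above 0.5% of V counts, the share of 1 cell in 200 if all gave equal RNA, numbered 15, 28, 30 and 25 in HET and 34, 41, 30 and 32 in WT (exact p = 0.0571, and 0.114 without HET replicate 1).

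**Figure D4:**
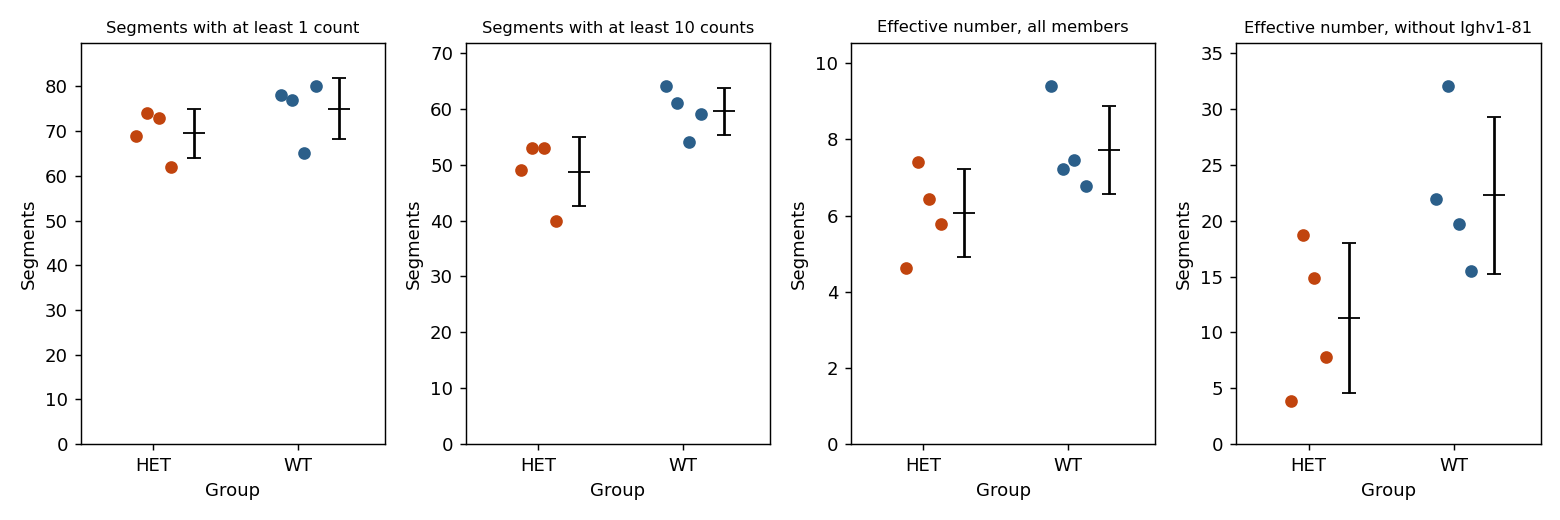
Points are single libraries (4 HET, 4 WT) and black marks with bars are the mean ± SD of each group, for segments with at least 1 count, segments with at least 10 counts, and the effective number of segments with and without Ighv1-81. HET and WT overlap in every panel except that of at least 10 counts (40 to 53 against 54 to 64).

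Segments fall into families of related sequence, named by the number before the hyphen, and into an order along the locus, with low orders nearest to the D segments. The 125 members belong to 15 families, 11 of which reached 1% in some library and were tested. None passed the test (adjusted p from 0.754 to 0.971, exact permutation tests). Ighv1, the largest family with 64 members, took 72.3% ± 12.5 of V counts in HET (SD, n = 4), against 72.1% ± 4.86 in WT (SD, n = 4). Its HET values were 90.0% in replicate 1 and 60.8% to 71.0% in the others. Ighv5, with 12 members, took 1.55%, 8.85%, 3.78% and 2.63% in HET and 10.01%, 5.98%, 7.94% and 6.05% in WT (exact p = 0.143). The 4 families not tested ranged from 0% to 0.843% (Ighv4), 0.485% (Ighv12), 0.624% (Ighv13) and 0.320% (Ighv15). Ighv14 was highest in HET replicate 4, at 21.8% against 0.174% to 4.96% in the other libraries, nearly all of it Ighv14-3.

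The 62 segments nearer to the D segments took 28% ± 12.4 of V counts in HET (SD, n = 4), against 28.7% ± 4.82 in WT (SD, n = 4) (exact p = 0.914). HET replicate 1 was low at 10.4%, against 23.3% to 38.8% in the other libraries. Ighv1-12, Ighv1-22 and Ighv1-26 stand at orders 63, 71 and 73 of 123 in the locus, just beyond these 62 segments, and Ighv1-81 stands at order 119. With these 4 segments left out, the share of the 62 segments was 59.5% in HET replicate 1, inside the 45.3% to 67.7% of the other libraries.

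**Figure D5:**
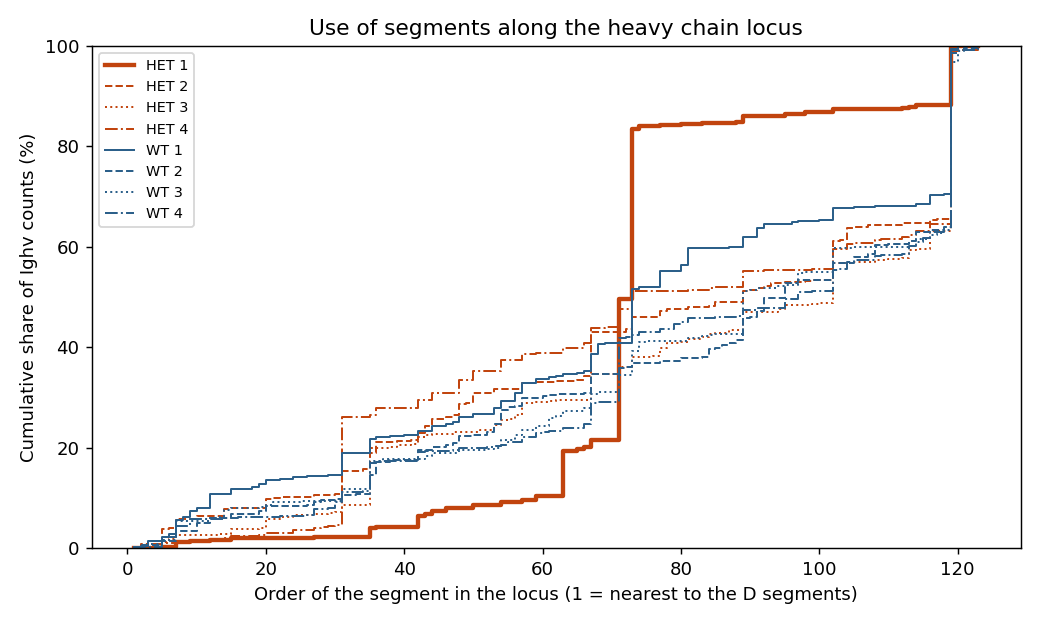
Lines give the cumulative share of heavy chain V counts (percent) along the order of 123 segments from the one nearest to the D segments, for 4 HET and 4 WT libraries. HET replicate 1 (thick line) rises at orders 63, 71 and 73, and every line steps up at order 119, Ighv1-81.

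Single segments were read from a fit over all 12744 genes that passed the filter on low counts. Of the 125 members, 56 passed it. None was called at an adjusted p of 0.05 by edgeR's quasi-likelihood test, where 0.0235% of all genes tested were called. At an unadjusted p under 0.05 there were 5 members, all lower in HET, where 3.88% of all genes were lower and 3.34% higher at that threshold. Ighv1-59, Ighv1-80 and Ighv1-54, which are among these 5, passed the filter only through their WT counts. Log2 fold changes were below 0 for 36 of the 56 and above 0 for 20, where 6388 of all 12744 genes tested were below 0. The median log2 fold change of the members was -0.46 beside -0.00142 over all genes tested. These counts and the median are a description, and no lower level in HET is read from them. DESeq2 called 1 member, Ighv1-9, lower in HET (adjusted p = 0.0236, with 0.687% of genes called). Ighv1-9 had 5, 7, 6 and 3 counts in HET and 59, 27, 134 and 8 in WT, and edgeR's filter left it out. On the CPM scale the groups overlapped, at 0.402, 0.907, 0.899 and 0.455 in HET and 5.61, 2.74, 16.9 and 0.835 in WT. It is named because DESeq2 called it.

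The groups did not overlap in CPM for 3 of the 56 members, all lower in HET, where 2.62% of all genes did so in that direction. These 3 passed the filter on low counts only through their WT counts. Their number is thus a description and no support for a lower level in HET. No member was higher in every HET library, where 1.99% of all genes were. Ighv1-59 had 0, 1.04, 0.749 and 0 CPM in HET and 2.19, 5.79, 27.4 and 15.9 CPM in WT (log2 fold change -4.87, SE 1.08, adjusted p = 0.234, edgeR). Ighv1-80 had 2.25, 0, 0.150 and 0 CPM in HET and 2.28, 6.10, 6.82 and 13.05 CPM in WT (log2 fold change -3.38, SE 1.06, adjusted p = 0.506, edgeR). Its highest HET value, in replicate 1, reached nearly the lowest WT value. Ighv1-54 had 0.482, 3.89, 0 and 0 CPM in HET and 21.0, 11.5, 5.55 and 5.85 CPM in WT (log2 fold change -3.31, SE 1.08, adjusted p = 0.569, edgeR). All 3 were minor segments, with at most 2.38% of V counts in any library, and 27 of 252 windows of Ighv1-59 were shared with other segments.

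The rest of the antigen receptor gave the setting of these values. Of 25 listed genes, 23 were in the table, 20 passed the filter and none was called (lowest adjusted p = 0.354, for Cd79b, edgeR). At an unadjusted p under 0.05 there were 4, where 7.22% of all genes tested passed. Among these 4, Ighd, Cd79a and Cd79b were lower in HET by value. Most of the list went the other way. Of its 20 tested genes, 13 lay above WT in HET and 7 lay below, and on the log2 scale their median was 0.139. These directions include HET replicate 1 and were not counted without it. Ighm, among the 13, was at 15362 CPM in that library. In HET replicates 2 to 4 it was at 6145 to 7366 CPM, against 6915 to 7657 CPM in WT. Cd79b, the partner of Cd79a in signalling, had 2443, 2658, 2728 and 2290 CPM in HET and 3121, 3030, 2978 and 2825 CPM in WT, without overlap. Igkc, the kappa light chain constant region, was highest in HET replicate 1, at 12387 CPM against 3908 to 5456 CPM. Among switched isotypes Ighg3 was highest in WT replicate 4 (767 CPM, against 50.2 to 266 CPM elsewhere).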

How the data were processed

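RNA was measured by the authors with a SMART-Seq2 protocol adapted to about 200 cells in 8 libraries (4 HET, 4 WT). After FastQC, reads were mapped to GRCm38 by HISAT2 2.2.1 and, after sorting in Samtools, counted by HTSeq-count. The annotation release, strand setting and treatment of reads with several alignments are not given in the sources used here. The deposited counts are whole-number read counts per gene symbol (24259), without molecular identifiers. The deposited TPM values (24232 symbols, 124 members) sum to 1000000 per library and served as an alternative.

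Counts were analysed with edgeR 4.0.16 in R 4.3.3 (TMM, filterByExpr, robust quasi-likelihood F-test, group as the only factor, Benjamini-Hochberg adjustment over 12744 genes). The script was tested on simulated data. Standard errors are the log2 fold change over the square root of F. Values per library were compared by exact permutation tests in SciPy 1.17.1. In libraries of 6652386 to 12559189 counts, 3 counts were worth 0.241 to 0.455 CPM. Repeats of a group differed beyond counting error (chi-square per degree of freedom 12.7 to 29.1), so no library was a copy of another in its group. The statistic cannot tell separate sorts from separate preparations of 1 sort. Positions and sequences came from GENCODE M21 on GRCm38, the build of the files. Nearest relatives were found by global alignment over at least 250 bases (Biopython 1.88).

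Named segments were the 12 of highest mean share, the leading segment of each library, segments past the edgeR threshold, and up to 5 per direction without overlap between groups. Members and lists were chosen with earlier results of these data known. Alternatives were DESeq2 1.42.0, RLE factors, other filters, TPM, added or removed segments, a replicate block and leaving out each library. The DESeq2 independent filter was aimed at the 0.05 threshold after its default of 0.1 had been run, and both are given in the closing section. The Ighv1-72 gene was left out of all sums, and no columns of the authors' own comparisons were used. The values of 1 gene of the antigen receptor list are not reported here.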

Additional observations from a re-analysis of the deposited data

Results flagged for a closer look

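In a group of 4 libraries a value was set aside for a closer look when its gap to the nearest of the others divided by the range of the group exceeded Dixon's 95% critical value. Of 62 groups examined, 10 met this, where about 3.1 would do so if values were normal and groups independent. The groups are not independent, since the summed V level contains flagged segments, so no excess over chance is read from this. HET replicate 1 accounts for 6 of the 10. There Ighv1-26 was at 872 CPM (other HET libraries 20.1 to 40.9), Ighv1-22 at 727 CPM (1.30 to 43.1), Ighv1-12 at 234 CPM (0 to 12.4), Ighv3-6 at 56.7 CPM (12.4 to 18.0) and Ighv1-80 at 2.25 CPM (0 to 0.150), and the summed V level was 2591 CPM (925 to 1151). Of 7 antibody-secreting cell markers 3 were highest in this library, Jchain by far the most (1576 CPM) and the other 6 together at 524 CPM. Prdm1, Xbp1, Sdc1 and Tnfrsf17 came there next after the library where each was highest. The part of these cells in the result was not tested.

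The remaining 4 lie in different libraries. Ighv14-3 was at 247 CPM in HET replicate 4 (2.17 to 42.4 in the others). Ighv1-54 was at 3.89 CPM in HET replicate 2 (0 to 0.482). Family Ighv8 took 1.84% in HET replicate 3 (0.4% to 0.580%), and family Ighv11 took 1.59% in WT replicate 4 (0% to 0.250%).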

How the results depend on the processing

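Of the 4 measures per library, segments detected and the effective number kept their direction under every alternative run. When libraries were left out, their differences (HET minus WT) ranged from -8.83 to -3 segments and from -2.09 to -1.09 effective segments (-8.49 without both HET replicate 1 and Ighv1-81). The test was passed by 1 alternative, at least 10 counts per segment (difference -10.75 segments, exact p = 0.0286). With a library left out the smallest possible exact p is 0.0571, so that no such setting could pass. The share of the 5 leading segments differed by 13.5 percentage points in place of 1.16 for the leading one, and neither passed the test. Directions that turned when 1 library was left out were those of the summed level (-148 to 407 CPM, below 0 without HET replicate 1), the leading share (-0.243 to 1.93 percentage points, below 0 without WT replicate 1, and 7.54 without both HET replicate 1 and Ighv1-81), the share of the 62 nearer segments (-4.29 to 5.20 percentage points) and the family shares of Ighv1 (-5.69 to 4.04), Ighv7 (-0.178 to 0.813), Ighv9 (-1.99 to 1.75), Ighv11 (-0.511 to 0.0198) and Ighv14 (-0.786 to 6.43).

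Calls among the members were 0 under edgeR with RLE factors, without a filter, with a mean of at least 50 counts and without each library, 1 under DESeq2 (also 1 with its filter aimed at 0.1, where it called 88 genes in all in place of 95) and 5 at an unadjusted p. Log2 fold changes of uncalled segments turned for Ighv1-26 (-0.85 to 3.44), Ighv1-22 (-1.51 to 3.46), Ighv14-3 (-0.61 to 1.84), Ighv9-3 (-0.90 to 0.28), Ighv1-19 (-0.019 to 0.43), Ighv1-53 (-0.90 to 0.12), Ighv1-12 (-0.45 to 4.07) and Ighv10-3 (-0.37 to 0.26) when 1 library was left out, and the cause was not tested. Those of Ighv1-81 (-0.26 to -0.13), Ighv1-59, Ighv1-80 and Ighv1-54 did not turn.

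Equal replicate numbers did not mark pairs (correlations of deviations -0.0511 to 0.0129, with 1 of 4 HET libraries closest to its own number). With the replicate block, edgeR called 0 members and 0 genes, and Ighv1-22 stood at -0.78. The smallest exact p with the block is 0.125. Differences under the block in the per-library measures equal those without it. Depth limits minor segments most, since 3 counts amount to 0.00931% to 0.0459% of V counts.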
